A study of Danio rerio with 9 samples.

Results

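Impurity F is a structural relative of the macrolide antibiotic azithromycin, and the comparison described here is that of zebrafish liver exposed to impurity F with liver exposed to the vehicle DMSO. Wild-type AB larvae received impurity F at 2 mM, or DMSO, for 72 h from 3 days postfertilization (dpf), and RNA was taken from the dissected liver at the end of the exposure, at 6 dpf. The series holds 9 libraries, 1 for DMSO and 1 for each of azithromycin and impurities F, I, J, L, Q, R and S, all from the same strain, age and length of exposure, with each compound at the same dose. The members are all entries of the pathway table deposited for impurity F, with every gene named in it. They comprised 408 distinct genes of the 1154 listed for any of the 8 compounds, which is 35.4%, and 889 pathway terms of 1234.

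Each table names the differentially expressed genes (DEGs) that belong to a pathway of KEGG, Reactome or PANTHER, with the direction of each gene against DMSO and the number of background genes of the pathway. A DEG is a gene that passed a fold change of at least 2 in the authors' calling. The tables give neither read numbers nor the size of a change, so the depth is unknown and only directions and counts can be described. The tables need not hold every gene the authors called, so a gene that is not listed cannot be read as unchanged or as not called. With 1 library per condition no comparison below has a replicate check, and no test was possible. In bulk liver, fewer cells of a type and less RNA per cell cannot be told apart. How many larvae went into a library is not given in the sources used here.

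Azithromycin blocks protein synthesis on the bacterial ribosome. As a weak base it enters animal cells and gathers in lysosomes, and it leaves the body largely through the liver and bile. Hepatocytes store and release glucose, build fatty acids and plasma proteins, and convert cholesterol to bile acids. Much of this carbon metabolism is set by insulin, whose receptor recruits phosphatidylinositol 3-kinase (PI3K). The lipid that PI3K makes activates AKT, and AKT in turn releases mTOR, the kinase that promotes protein synthesis and restrains autophagy.

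Of the 408 genes for impurity F, 202 were upregulated and 206 downregulated, so 49.5% were upregulated. The same share ran from 48.7% to 52.3% in the other 7 tables. KEGG terms held 299 of the genes, Reactome terms 236 and PANTHER terms 23. No gene had different directions in different rows, and 7 genes came without a symbol in the file, all of which RefSeq named by their Entrez identifier.

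A gene can belong to many terms, and a few genes carried a large part of the table. The 10 genes in most terms supplied 1103 of 3654 gene and term pairs, which is 30.2%, whereas the median gene stood in 4 terms and 82 genes stood in 1. The proteasome subunits *psma1* (upregulated, 156 terms), *psmb7* (downregulated, 155 terms) and the proteasome activator *psme4b* (upregulated, 148 terms) led this order. They were followed by the small GTPase *hrasb* (downregulated, 120 terms) and the growth factor *fgf6a* (downregulated, 92 terms). The PI3K catalytic subunits *pik3ca* and *pik3cb* were upregulated in 89 and 84 terms, and the regulatory subunit *pik3r1* was downregulated in 89. A long run of Reactome signaling terms can therefore rest on the same few genes.

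The KEGG terms held 732 pairs of a DEG and a term. Set against the authors' total background number for KEGG, 10387, this is 7.05%, called the pooled share below. The upregulated pairs numbered 348 (3.35%) and the downregulated ones 384 (3.7%). The pooled share was 7.21% in Reactome and 5.72% in PANTHER. How the authors formed the total background number is not given in the sources used here, so the pooled share is only a rough measure for single terms. A term was called leading when it had at least 10 background genes and 3 DEGs, and was then ordered by the share of its background genes that were DEGs.

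**Figure D1:**
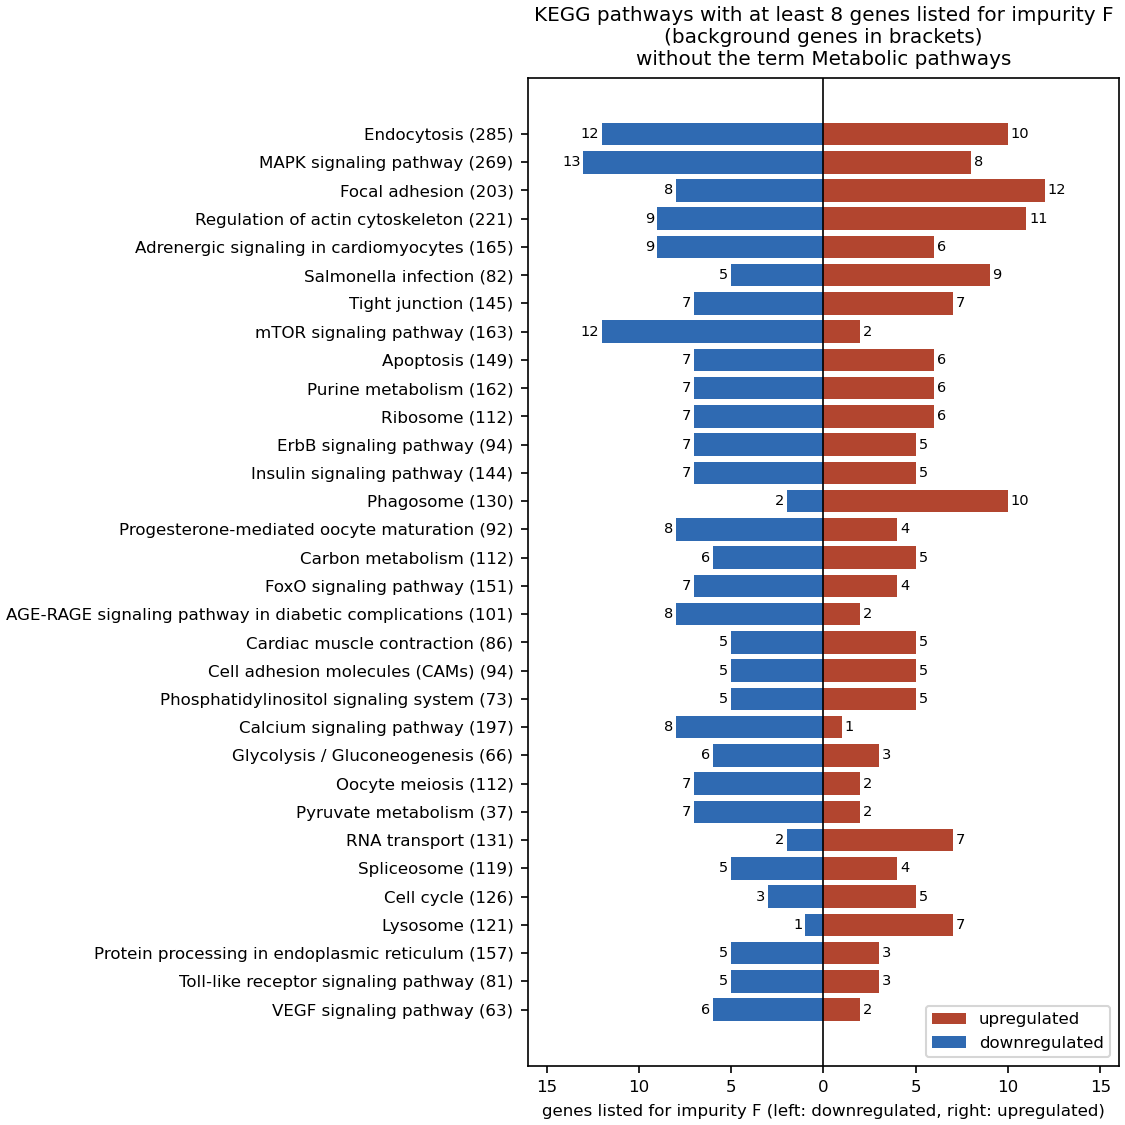
KEGG pathways with at least 8 genes listed for impurity F (rows, background genes in brackets, without the collective term Metabolic pathways) against the number of genes listed (horizontal axis), downregulated to the left in blue and upregulated to the right in red. The longest bars drawn on the left were MAPK signaling (13), endocytosis (12) and mTOR signaling (12), and calcium signaling, mTOR signaling and lysosome leaned most to 1 side.

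Pyruvate metabolism was the leading KEGG pathway. In it 9 of 37 background genes were DEGs (24.3%), 7 of them downregulated and 2 upregulated. The downregulated genes included *acss2*, which makes cytosolic acetyl-CoA from acetate, the cytosolic malic enzyme *me1*, a source of NADPH, and the cytosolic malate dehydrogenase *mdh1aa*. They also included *ldhbb*, the lactate dehydrogenase subunit that favours lactate oxidation, and *glo1* and *hagh*, the successive enzymes of the glyoxalase route that removes methylglyoxal. The upregulated genes were the mitochondrial malic enzyme *me2* and the aldehyde dehydrogenase *aldh9a1b*, whose relative *aldh9a1a.1* was downregulated.

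Glycolysis and gluconeogenesis was also among the 10 leading KEGG pathways, with 9 of 66 background genes listed (13.6%), 3 upregulated and 6 downregulated. Downregulated here were *g6pca.1*, the phosphatase subunit that lets liver release free glucose, the enolase *eno3* and the bisphosphoglycerate mutase *bpgm*, together with *acss2*, *aldh9a1a.1* and *ldhbb* from above. The triosephosphate isomerase *tpi1a*, *aldh9a1b* and the inositol polyphosphate phosphatase *minpp1b* were upregulated. Outside this pathway *pfkfb3*, which makes the main allosteric activator of glycolysis, was downregulated, as was *aclyb*, the ATP citrate lyase that supplies acetyl-CoA for lipid synthesis. *g6pca.1*, of glucose release, and *pfkfb3*, which favours glucose breakdown, were thus both downregulated. Of the other genes of this route, *eno3* and *bpgm* were downregulated and *tpi1a* was upregulated. A wider list held 84 glycolysis and gluconeogenesis genes. Of the 19 members listed in any table, 9 were listed for impurity F, 3 up and 6 down. This is 47.4%, against 35.4% of all genes. Most of these 9 are in the KEGG pathway above, so the list adds little to it. Impurity S had the same split in this list, and impurity L had 4 up and 5 down. The remaining tables listed fewer members.

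The tables of azithromycin, impurity I and impurity L gave other splits for these pathways. In pyruvate metabolism 4 genes were downregulated and 2 upregulated for azithromycin, 1 and 5 for impurity I, and 3 and 3 for impurity L. Over all 7 other tables the number of downregulated genes in this pathway ran from 1 to 5, against 7 for impurity F. Impurity Q, with 2 up and 5 down, and impurity S, with 3 and 5, came closest to impurity F. In glycolysis and gluconeogenesis the split was 2 up and 1 down for azithromycin. It was 3 and 2 for impurity I and 4 and 4 for impurity L. Impurity S, with 3 up and 4 down, and impurity J, with 0 and 3, also had more genes down than up. In this pathway the 7 other tables ran from 0 to 4 up and from 1 to 4 down. Some single genes differed in direction and others did not. *ldhbb* was downregulated for impurity F and J and upregulated for impurities I, L, R and S, and *me1* was downregulated for impurity F, azithromycin and impurity R and upregulated for impurity I. Since all comparisons use the same DMSO library, opposite directions place *ldhbb* lower in the impurity F library than in those of impurities I, L, R and S. *mdh1aa* was downregulated in every table except that of impurity J, which did not list it. *aclyb*, *tpi1a* and *minpp1b* were listed for impurity F and in no other table. Many other genes for impurity F were also listed in no other table. A listing for impurity F alone, here and below, is therefore common and does not set a gene apart.

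Lipid genes had no common direction. Of 58 genes of fatty acid and glycerolipid synthesis, 16 were listed in any table and 6 for impurity F (37.5%), 3 in each direction. *dgat2*, which catalyses the last step of triglyceride synthesis, *agpat3*, an acyltransferase of phospholipid synthesis, and *hsd17b12a*, an enzyme of very long chain fatty acid elongation, were upregulated. *acss2*, *aclyb* and *lpin1*, the phosphatidate phosphatase lipin, were downregulated, and *lpin1* was downregulated in all 8 tables. Of 14 listed genes of fatty acid oxidation and PPAR signaling, 4 were listed for impurity F (28.6%). *cpt1ab*, which controls the entry of fatty acids into mitochondria, and *me2* were upregulated, and the nuclear receptor *ppardb* and *me1* were downregulated. *hmgcra*, the rate-limiting reductase of cholesterol synthesis, was downregulated for impurity F and for impurities I, L, J and Q, and was the only member of the cholesterol synthesis list to appear for impurity F.

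**Figure D2:**
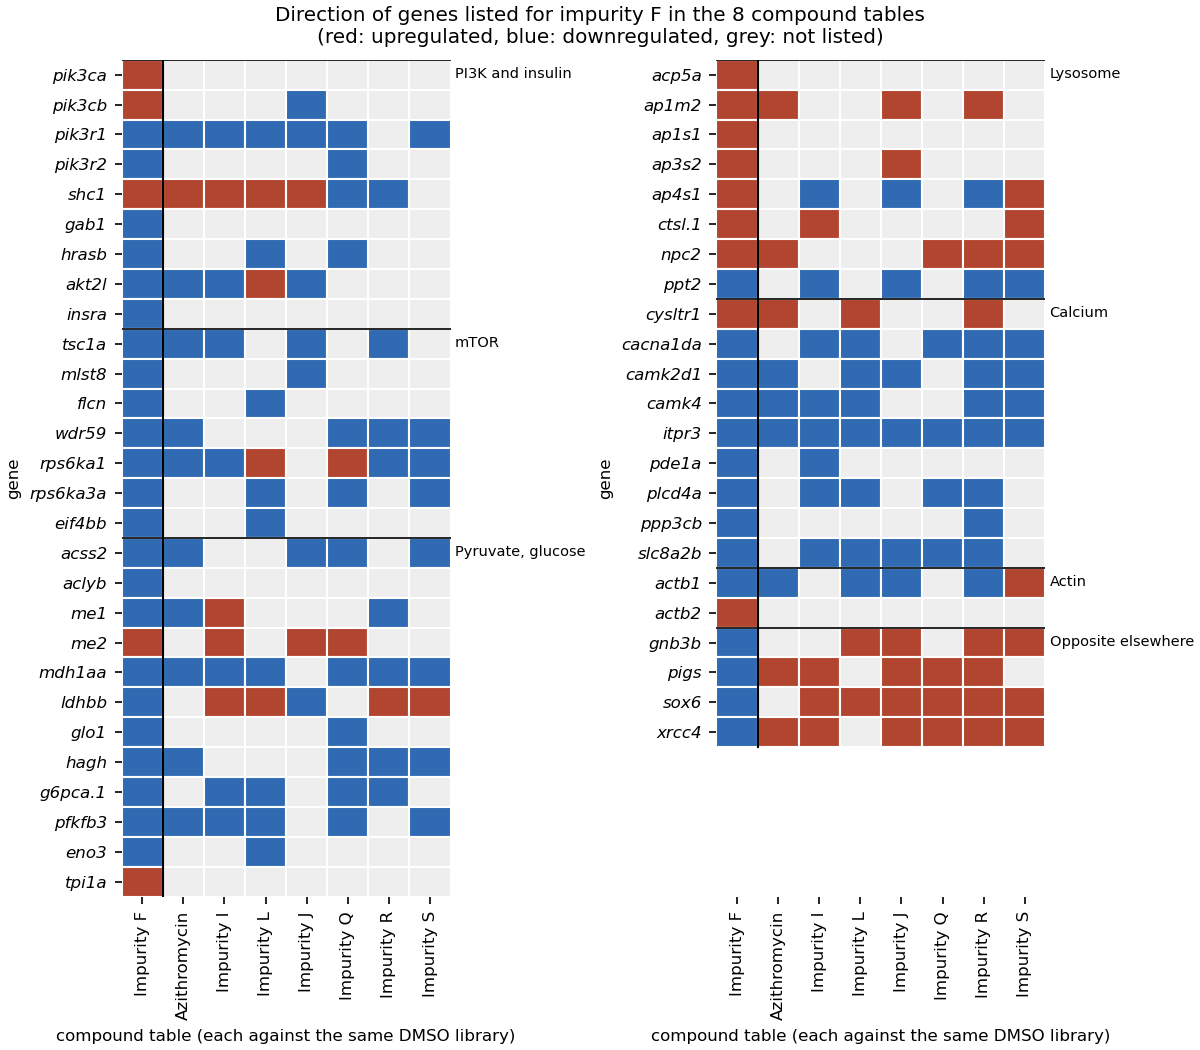
Direction of genes listed for impurity F (rows, grouped by role) in each of the 8 compound tables (columns), with upregulated in red, downregulated in blue and not listed in grey. The column of impurity F shows the catalytic PI3K subunits up and the regulatory subunits down, 7 lysosome genes up and 1 down, and 8 calcium signaling genes down and 1 up, and many of the same rows are grey or of the other colour elsewhere.

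The listed catalytic and regulatory PI3K subunits had opposite directions for impurity F. The catalytic subunits *pik3ca* and *pik3cb* were upregulated. The regulatory subunits *pik3r1* and *pik3r2*, which hold the catalytic subunits at receptors, were downregulated. Apart from this split, the class III enzyme *pik3c3*, which makes the phosphoinositide of endosomes and autophagosomes, was upregulated. *pik3c3* was also upregulated for impurities L, J, Q, R and S. *pik3ca* was listed in no other table, and *pik3cb* was listed elsewhere only for impurity J, as downregulated. *pik3r1* was downregulated in all tables except that of impurity R, which did not list it. Around them, the insulin receptor *insra*, the docking protein *gab1*, the GTPase *hrasb* and the AKT gene *akt2l* were downregulated, and the adaptor *shc1* was upregulated. *insra* and *gab1* appeared in the table of impurity F alone, and *akt2l* was also downregulated for azithromycin and impurities I and J and upregulated for impurity L. *shc1* was also upregulated for azithromycin and impurities I, L and J, and downregulated for impurities Q and R. *hrasb* was also downregulated for impurities L and Q, and *pik3r2* for impurity Q.

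These genes filled most of the 5 leading Reactome terms with the highest shares. Signaling by ERBB2 had 5 of 16 background genes listed (31.2%), which were *pik3ca* and *shc1* up and *gab1*, *hrasb* and *pik3r1* down. Regulation of signaling by CBL had 3 of 10 (30.0%), and G beta:gamma signaling through PI3Kgamma and its parent term had the same 4 of 15 genes (26.7%), *pik3ca*, *pik3cb* and *shc1* up and *pik3r1* down. Impurities I and J also had 4 genes in the last 2 terms, but 1 up and 3 down. The 7 other tables listed 1 to 4 genes of signaling by ERBB2 and 0 to 2 of regulation of signaling by CBL. The phosphatidylinositol signaling system of KEGG had 10 of 73 listed (13.7%), 5 in each direction. Besides PI3K subunits these were the diacylglycerol kinase *dgkaa* and the phosphatidylinositol kinase *pi4kb*, upregulated, and the inositol hexakisphosphate kinase *ip6k1*, the phospholipase C *plcd4a* and the inositol trisphosphate receptor *itpr3*, downregulated. Without *hrasb*, *pik3ca*, *pik3cb*, *pik3r1*, *pik3r2* and *akt2l*, which were left out after their values had been seen, this pathway kept 3 up and 3 down. With all genes kept, impurity Q also had 10 listed in this pathway, and the 7 other tables ran from 5 to 10.

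The mTOR signaling pathway had 14 of 163 background genes listed (8.59%), a share near the pooled 7.05%, but 12 of the 14 were downregulated. Apart from *insra*, *akt2l*, *hrasb*, *pik3r1* and *pik3r2*, these were *mlst8*, a subunit of both mTOR complexes, *wdr59*, a subunit of the GATOR2 complex that activates mTOR when amino acids are present, and *flcn* (folliculin), which acts on the Rag GTPases. *tsc1a*, which restrains mTOR, was downregulated as well, so members with opposite known roles lay on the same side. The ribosomal S6 kinases *rps6ka1* and *rps6ka3a* and the translation initiation factor gene *eif4bb* completed the group, and only *pik3ca* and *pik3cb* were upregulated. When the 6 shared signaling genes were left out, 8 downregulated genes and 0 upregulated genes remained. As *pik3ca* and *pik3cb* are among those 6, no upregulated gene could remain, so this count is no check of the direction. The split was 1 up and 9 down for azithromycin, 2 and 5 for impurity I and 5 and 6 for impurity L, and the 7 other tables listed 5 to 9 downregulated genes in this pathway. Impurity J had 1 up and 8 down. Each of the 7 other tables had more mTOR genes down than up, so this lean is not particular to impurity F.

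Some of these mTOR genes had other directions elsewhere. *rps6ka1* was upregulated for impurities L and Q and downregulated for impurity F, azithromycin and impurities I, R and S. *tsc1a* was downregulated for impurity F, azithromycin and impurities I, J and R. *mlst8* was listed for impurities F and J only, and *flcn* and *eif4bb* for impurities F and L only, always as downregulated. In the autophagy pathway, 3 of 22 background genes were listed (13.6%), with *atg13*, a subunit of the initiating kinase complex, and *pik3c3* upregulated, and the protease *atg4a* downregulated.

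Terms of neighbouring signaling pathways were read with the same caution about shared genes. VEGF signaling had 2 genes up and 6 down, but 0 up and 2 down without the 6 shared genes. AGE-RAGE signaling had 2 up and 8 down, and 0 up and 4 down without them. In both pathways the 2 upregulated genes were *pik3ca* and *pik3cb*, so the 0 followed from the choice of genes left out. ErbB signaling had 5 up and 7 down of 94 background genes (12.8%), including the ligand *btc* and the ubiquitin ligase *cblc*, both upregulated, and the kinase *pak1*, downregulated. Without the shared genes it had 3 in each direction. The insulin signaling pathway had 5 up and 7 down, and likewise 3 and 3 without them. Progesterone-mediated oocyte maturation, a leading pathway with 12 of 92 listed (13.0%), had 4 up and 8 down. It contained the anaphase-promoting complex subunit *anapc1* and the RNA-binding protein *cpeb4*, upregulated, and *hsp90ab1*, *mapk14b*, *pkmyt1*, *rps6ka1* and *rps6ka3a*, downregulated.

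The few listed genes of calcium signaling were downregulated with 1 exception. The KEGG pathway had 9 of 197 background genes listed (4.57%, below the pooled share), 8 of them downregulated and 1 upregulated. The downregulated genes were the voltage-gated channel *cacna1da*, the release channel *itpr3*, the exchanger *slc8a2b*, the kinases *camk2d1* and *camk4*, the calcineurin subunit *ppp3cb*, the phosphodiesterase *pde1a* and *plcd4a*. The leukotriene receptor *cysltr1* was upregulated. *itpr3* was downregulated in all 8 tables, and *camk4* in all except those of impurities J and Q, which did not list it. The pathway had 8 up and 6 down for azithromycin, 6 and 8 for impurity I and 3 and 8 for impurity L. Impurity S, with 1 up and 6 down, and impurity J, with 2 and 6, had splits close to that of impurity F, and the 7 other tables ran from 1 to 8 up and from 5 to 9 down.

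In GnRH signaling 6 of 97 background genes were listed (6.19%, below the pooled share), all downregulated, namely *atf4a*, *cacna1da*, *camk2d1*, *hrasb*, *itpr3* and *mapk14b*, the last a p38 kinase. Azithromycin and impurity L each had 3 up and 7 down in this pathway, impurity I had 6 up and 5 down, and impurity Q had 1 up and 7 down. In MAPK signaling 21 of 269 background genes were listed (7.81%), 8 up and 13 down. The growth factors *fgf1a* and *fgf6a*, the neurotrophin receptor *ntrk2b*, the phosphatase *dusp8a*, *pak1* and *mapk14b* were among the downregulated genes. The filamins *flnca* and *flncb*, the transcription factor *mef2cb*, the phosphatase *ppm1aa* and the adaptor *ecsit* were among the upregulated ones. The splits were 12 up and 8 down for azithromycin, 12 and 6 for impurity I and 14 and 9 for impurity L. Impurity Q, with 8 up and 12 down, and impurity J, with 7 and 9, also had more genes down than up, and the 7 other tables ran from 7 to 14 up and from 6 to 12 down.

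**Figure D3:**
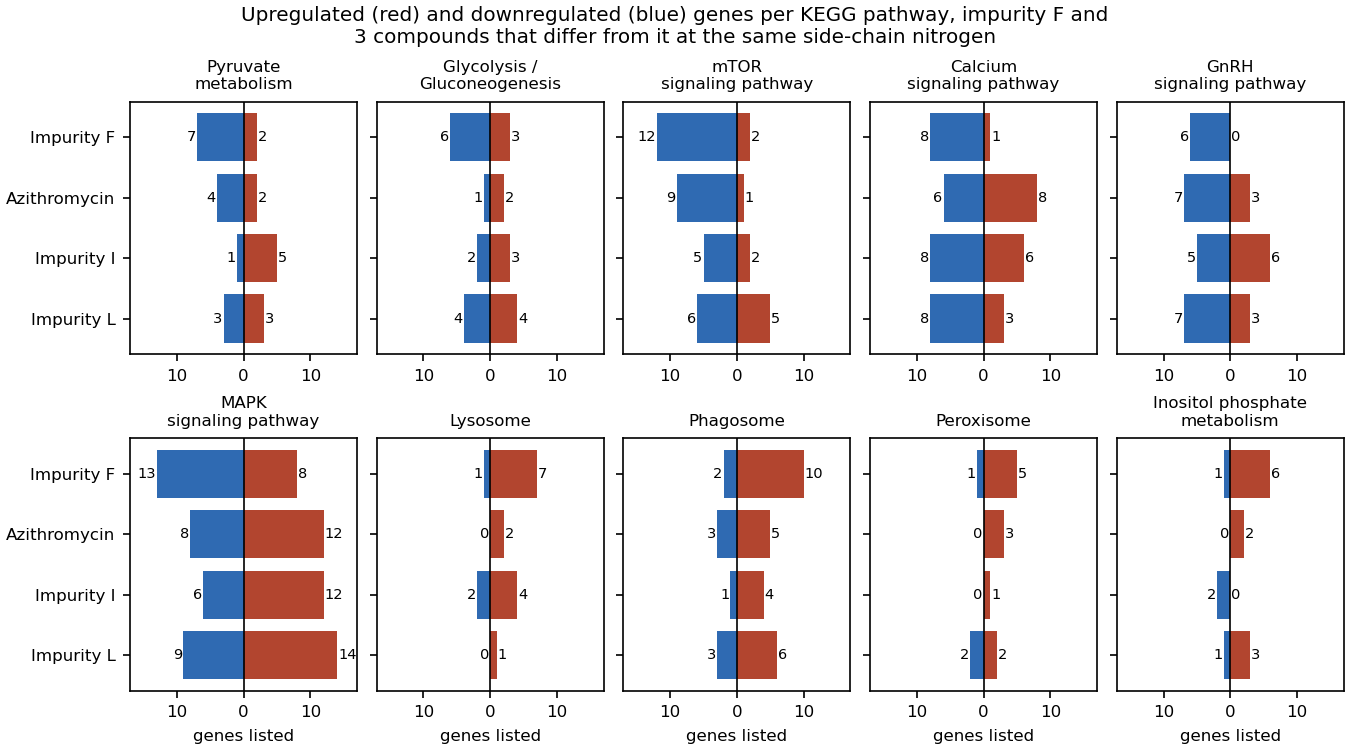
Number of downregulated (blue, left) and upregulated (red, right) genes in 10 KEGG pathways (panels) for impurity F, azithromycin and impurities I and L (rows), each against the same DMSO library. Impurity F had 7 genes down in pyruvate metabolism against 1 to 4 in the other rows, 13 down in MAPK signaling against 6 to 9, and 7 up in lysosome against 1 to 4.

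Impurity F, azithromycin and impurities I and L differ in structure at the same side-chain nitrogen, as the study draws them, and impurity F carries an aldehyde group there. Their doses and exposure times were the same. The pathways shown for these compounds were chosen after the values of impurity F had been seen, so the contrast in the plot of counts by compound is a description, and with 1 library each no interval of a difference can be given.

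In the lysosome, phagosome and peroxisome pathways most of the listed genes were upregulated for impurity F. The KEGG lysosome pathway had 8 of 121 background genes listed (6.61%, close to the pooled share), 7 up and 1 down. Among the upregulated genes, the acid phosphatase *acp5a*, the protease cathepsin L *ctsl.1* and the cholesterol-binding protein *npc2* act inside the lysosome. The other 4, *ap1m2*, *ap1s1*, *ap3s2* and *ap4s1*, are subunits of the adaptor complexes that sort cargo into vesicles. The thioesterase *ppt2* was downregulated. A list of 135 lysosome genes held the same 8 genes for impurity F, of 17 members listed in any table (47.1%, against 35.4% of all genes). This list is therefore no second view of the pathway. The pathway had 2 up and 0 down for azithromycin, 4 and 2 for impurity I and 1 and 0 for impurity L. Impurity S had 5 up and 1 down. The 7 other tables ran from 1 to 5 up and from 0 to 3 down, and none had more genes down than up. *acp5a* and *ap1s1* were listed for impurity F alone. *ap4s1* was downregulated for impurities I, J and R and upregulated for impurities F and S, and *npc2* was upregulated wherever it was listed, for impurity F, azithromycin and impurities Q, R and S.

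The phagosome pathway had 12 of 130 listed (9.23%), 10 up and 2 down. Its upregulated genes included the early endosome GTPase *rab5aa*, the integrin *itgb1a*, the lectin *colec11*, *pik3c3*, *ctsl.1*, the tubulin *tubb6*, and the dynein intermediate chains *dync1i1* and *dync1i2a*. *actb1* and the complement gene *c3a.3* were downregulated. The other 7 tables listed 3 to 8 upregulated and 1 to 3 downregulated genes here, and each had more genes up than down. The peroxisome pathway had 6 of 77 listed (7.79%), 5 up and 1 down. Catalase (*cat*), the hydroxyacid oxidase *hao2*, the lyase *hacl1* and the reductase *dhrs4* were upregulated, and the import factor *pex6* was downregulated. *cat* was also upregulated for impurities J and Q and was downregulated for impurity S. In the peroxisome pathway the other 7 tables had 1 to 3 genes up and 0 to 2 down, and none had more down than up. *cat* and *hao2*, with the glutamine synthetase *glulb* and the epimerase *mcee*, made up the upregulated part of glyoxylate and dicarboxylate metabolism, where 5 of 33 genes were listed (15.2%) and *mdh1aa* was the downregulated one.

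Endocytosis had 10 genes up and 12 down of 285 (7.72%). The endosomal sorting genes *vps28* and *vps4b*, *rab5aa* and *rab11fip5b* were among the upregulated genes, and the coat and uncoating genes *ap2m1a*, *dab2* and *dnajc6* and the receptor kinases *grk4* and *grk5l* among the downregulated ones. Inositol phosphate metabolism had 6 up and 1 down of 62 (11.3%), of which *pik3ca* and *pik3cb* are 2 of the shared signaling genes, and 4 up and 1 down without them. Across the 53 KEGG pathways with at least 5 listed genes, 12 had at least 80% of them in 1 direction, 7 mostly up and 5 mostly down. These pathways and their genes were picked out by that rule after the directions were known.

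The actin genes were split. *actb1* was downregulated and *actb2* upregulated, and both encode cytoplasmic beta-actin. *actb2* was listed in no other table, while *actb1* was also downregulated for azithromycin and impurities J, L and R and upregulated for impurity S. The 2 genes are close copies, and how the counting assigned reads that match both is not given in the sources used here, so their directions are uncertain. They enter several leading terms. Salmonella infection had 14 of 82 genes listed (17.1%), 9 up and 5 down. Besides *actb2* it had the flagellin receptor *tlr5b*, the kinases *rock2b* and *pkn2*, the filamins and the dynein chains upregulated, and besides *actb1* the chemokine *cxcl8a*, *mapk14b* and the actin regulator *wasla* among the downregulated genes.

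Leading PANTHER terms rested on the same actins and on muscle myosins. Nicotinic acetylcholine receptor signaling had 5 of 24 listed (20.8%), *actb2* and the cardiac actin *actc1a* up and *actb1*, *myhz1* and *smyhc2* down. Chemokine and cytokine inflammation had 5 of 34 (14.7%), with *camk2d1* as the only gene in it that encodes neither an actin nor a myosin. Of 11 pairs of listed genes with the same symbol stem, 6 had opposite and 5 had the same directions. The pairs were formed from symbols alone, so they need not be copies of 1 gene, and other copies could be missed. Besides the actins, opposite pairs were the adducins *add1* (down) and *add2* (up), and the methyltransferases *kmt2ba* (up) and *kmt2bb* (down). The others were *me1* and *me2*, *sox6* (down) and *sox7* (up), and *taf6* (up) and *taf9* (down). The pairs with the same direction included all those among *pik3c3*, *pik3ca* and *pik3cb*. Protein sequences were not used here, so how alike these pairs are was not tested.

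Of the liver's own functions, the primary bile acid pathway had 3 of 21 genes listed (14.3%). The steroid dehydrogenase *hsd3b7*, which acts early in bile acid synthesis, and *cyp46a1.3*, a cholesterol hydroxylase, were upregulated, and the cholesterol hydroxylase *ch25hl1.1* was downregulated. *hsd3b7* was downregulated for azithromycin, the only other table that listed it. The bile salt export pump gene *abcb11a* was upregulated for impurity F, azithromycin and impurities Q and S and downregulated for impurities I, J and R. Among the ABC transporters, *abcc10* was also upregulated and *abcc1* downregulated. In a list of 28 bile acid and transporter genes, 4 were listed in any table and 2 for impurity F, both upregulated. The 7 other tables had 0 to 2 members up and 0 to 1 down, with 2 up and 1 down for azithromycin. With only 4 such genes, the count cannot be told from the 35.4% of all genes. It gives no direction for bile acid genes as a set.

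Of 87 drug metabolism genes 12 were listed in any table and 2 for impurity F (16.7%, against 35.4% of all genes), the glutathione transferase *gsto2*, which was upregulated in all 8 tables, and the aldehyde oxidase *aox6*, which was downregulated. The cytochrome P450 gene *cyp3c3* was upregulated for impurity F and in every other table except that of impurity S, where it was not listed. It stood with the aminoacylase *acy1* (up) and *acy3.2* (down) in aflatoxin activation and detoxification, where 3 of 12 genes were listed (25.0%). The KEGG pathway drug metabolism by other enzymes had 3 of 29 listed (10.3%), all upregulated. These were *hprt1*, *impdh1b* and *upp1*, which KEGG also places in purine or pyrimidine metabolism, so they give no direction for drug-metabolizing enzymes as a set. Drug metabolism by cytochrome P450 had 2 of 30 (6.67%), 1 in each direction.

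The label liver was compared with marker genes. The larval hepatocyte marker *fabp10a* was not listed in any table, so its level is unknown. Of 68 hepatocyte markers 10 were listed in any table and 3 for impurity F (30.0%). The fibrinogen chain *fgb* and the protease inhibitor *serpina1* were upregulated and the complement gene *c3a.3* was downregulated. *fgb* was upregulated in every table except that of impurity I, where it was downregulated.

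**Figure D4:**
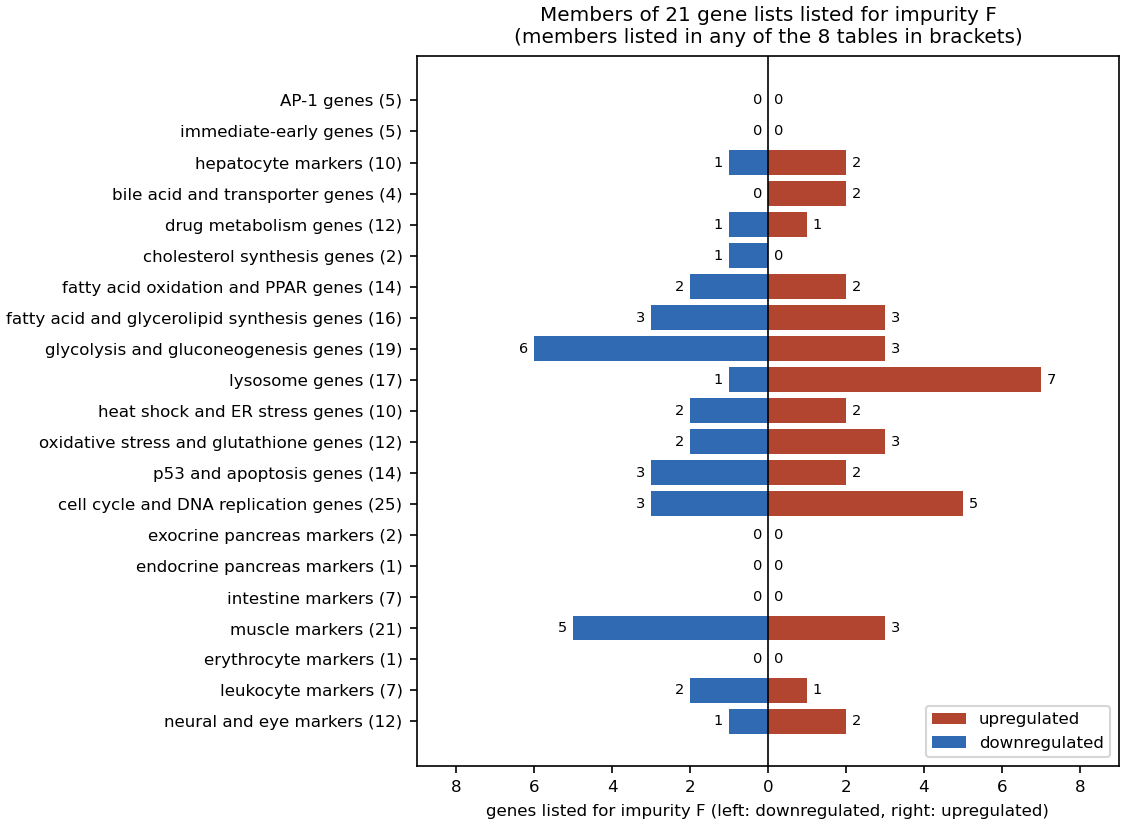
Members of 21 gene lists (rows, members listed in any of the 8 tables in brackets) that were listed for impurity F, downregulated to the left in blue and upregulated to the right in red, on a horizontal axis of numbers of genes. Lysosome genes (7 up, 1 down) and glycolysis genes (3 up, 6 down) were the longest rows with muscle markers (3 up, 5 down) and cell cycle genes (5 up, 3 down), and 6 lists had no member listed. The lysosome and cell cycle rows hold the same genes as the KEGG pathways of those names.

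Markers of other tissues that a dissection could carry along were counted in the same way. Of 89 muscle markers 21 were listed in any table and 8 for impurity F (38.1%, near the 35.4% of all genes). The slow myosin *smyhc2*, the troponins *tnni2b.2* and *tnnt1*, the tropomyosin *tpm2* and *eno3* were downregulated, and the troponin *tnnt3b*, the myosin light chain *mylpfa* and *actc1a* were upregulated. *smyhc2* was downregulated in all 8 tables. Of the neural and eye markers, the photoreceptor genes *arr3b* and *opn1lw2* were upregulated and *gnb3b* downregulated. No marker of exocrine or endocrine pancreas, intestine or erythrocytes was listed for impurity F. Any table listed only 2 exocrine pancreas, 1 endocrine pancreas, 7 intestine and 1 erythrocyte markers. This absence therefore does not show that these tissues were missing from the library. The share of muscle or eye RNA in each library is unknown, and its part in the actin, myosin and enolase directions above was not tested.

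Among leukocyte markers, the chemokine *cxcl8a* and the macrophage receptor *csf1ra* were downregulated and the protease inhibitor *timp2b* was upregulated. *cxcl8a* was listed for impurity F alone. The DNA sensor *mb21d1* (cGAS) was upregulated, whereas *tmem173* (STING), which acts downstream of it, was downregulated. *tmem173* was also downregulated for azithromycin and impurities I, Q, R and S.

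Stress genes were mixed. Of 101 heat shock and endoplasmic reticulum stress genes, 10 were listed in any table and 4 for impurity F (40.0%). The chaperone *hsc70* and the translocon-associated subunit *ssr3* were upregulated, and the chaperone *hsp90ab1* and the stress transcription factor *atf4a* were downregulated. *atf4a* was downregulated in every table except that of impurity S, which did not list it. Of 66 oxidative stress and glutathione genes, 12 were listed in any table and 5 for impurity F (41.7%), 3 up and 2 down. Among them *cat*, *gsto2* and the thioredoxin inhibitor *txnipb* were upregulated, and the ribonucleotide reductase subunit *rrm2* was downregulated. Of 112 p53 and apoptosis genes, 14 were listed in any table and 5 for impurity F (35.7%, near the 35.4% of all genes), 2 up and 3 down. These 5 included *actb2* (up) and *actb1* (down), whose directions are uncertain, and *rrm2* and *atf4a*, both down. The apoptosis inhibitor *birc2* was upregulated for impurity F and for impurities L, R and S. Azithromycin, impurity J and impurity Q had it as downregulated.

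Of 137 cell cycle and DNA replication genes, 25 were listed in any table and 8 for impurity F (32.0%, near the 35.4% of all genes). The replication genes *mcm4* and *cdc7*, the cohesin subunit *stag1a*, *anapc1* and the cyclin-dependent kinase inhibitor *cdkn2c* were upregulated. The cyclin *ccnh*, the inhibitory kinase *pkmyt1* and the transcription factor subunit *tfdp2* were downregulated. *mcm4*, *stag1a* and *ccnh* were listed for impurity F alone, and *tfdp2* was downregulated in most tables, upregulated for impurity I and not listed for impurity J.

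Genes of protein synthesis and turnover were listed in both directions. Ribosome genes were listed as 6 up and 7 down of 112 (11.6%), among them *rpl15*, *rpl23a*, *rpl26*, *rpl7a* and *rps12* up and *rpl10*, *rpl21*, *rpl34*, *rps15a*, *rps18* and *rps2* down. Reads of ribosomal protein genes can match their copies elsewhere in the genome, so single directions here are uncertain. RNA transport had 7 up and 2 down (6.87%), including the nuclear pore genes *nup188*, *nup50* and *aaas* and the transport GTPase *ran*, all upregulated. Each of the 7 other tables also had more RNA transport genes up than down, with 7 to 10 up and 1 to 5 down. *nup188* and *aaas* were upregulated in all 8 tables. In the proteasome, *psma1*, *psmc3*, *psmd1* and *psme4b* were upregulated and *psmb7* downregulated, 5 of 50 (10.0%), and the other 7 tables listed 4 to 7 genes. Oxidative phosphorylation had 2 up and 4 down of 123 (4.88%).

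The remaining leading KEGG pathways were small. In keratan sulfate synthesis 3 of 15 genes were listed, with the transferases *b3gnt2b* and *chst1* up and *b4galt4* down. Impurities I, L and J also had 2 up and 1 down here, and the 7 other tables listed 2 to 3 genes. In dorso-ventral axis formation 4 of 28 were listed (14.3%), with *cpeb4* and the actin nucleators *fmn2a* and *spire1a* up and the transcription factor *ets2* down. Impurity I listed 6 genes of this pathway and impurity S 5, and the 7 other tables ran from 1 to 6.

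The zebrafish c-fos gene *fosab*, on which the study centred, was not listed for impurity F, and was listed as upregulated for azithromycin and impurity L. The tables need not hold every gene called, so *fosab* cannot be read as not called for the compounds that do not list it. None of 24 AP-1 genes and none of 30 immediate-early genes was listed for impurity F, of 5 in each list that appeared in any table. With 5 such genes in each list, an absence cannot be told from a low share, and no expression level of these genes was used here.

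Some listed genes lie next to each other in the RefSeq annotation of the assembly GRCz12tu, which differs from the build of the files. Of 5 such pairs, *prkcq* and *pfkfb3*, *lepr* and *dnajc6*, and *tmem173* and *ppp3cb* were downregulated together, whereas *eef1a1a* (down) and *mb21d1* (up), and *tpi1a* (up) and *gnb3b* (down), had opposite directions. Whether strand was used in counting is not given in the sources used here, so reads shared between such neighbours were not tested.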

How the data were processed

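RNA-seq of dissected larval liver was compared for impurity F against DMSO, with 1 library per condition. Sequencing and DEG calling were done by a company for the authors, and the submitters' processing notes name FastQC, fastp, HISAT2 and the build GRCz11, without versions or roles. The study states triplicates for its experiments, but each condition has 1 library here. The deposited tables hold names of pathways and, per the file headers, counts of DEGs and background genes, gene symbols with Entrez identifiers and directions, with frequencies, p-values and corrected p-values computed by the authors. The frequencies and p-values were not used. The printed number of DEGs matched the genes named in all 7048 rows of the 8 tables. No file of the DMSO sample was used.

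Genes were counted once by Entrez identifier with Python 3.11.15 and pandas 2.3.3, and figures were drawn with matplotlib 3.10.9. RefSeq (GRCz12tu) held 407 of the 408 identifiers and was used for names and neighbours only. The pooled share of a database is the number of listed gene and term pairs over the total background number that the authors gave for it. The counting was tested on simulated data and recovered the gene counts of 8 of 8 tables of 400 genes. The comparisons planned for expression values and the protein identity of paralogs could not be computed. Most terms and many genes of the table are not named here. Depth is unknown, so no interval or detection limit is given.

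The members and gene lists were chosen with earlier results of these data known. Named were list members listed for impurity F, up to about 8 genes of each of the 10 leading KEGG, 5 Reactome and 3 PANTHER terms, genes with the opposite direction in every other table that lists them (at least 3), and *fosab*, *fabp10a*, *actb1* and *actb2*. All other genes, among them those of the mTOR, calcium, MAPK, endocytosis, phagosome, peroxisome, ribosome and RNA transport pathways, the genes in most terms and the neighbouring genes, were chosen for naming once their values had been seen. The alternatives tried were single databases, other term sizes, 1 entry per symbol and, added after seeing the data, leaving out 6 shared signaling genes and counting the directions apart.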

Additional observations from a re-analysis of the deposited data

Results flagged for a closer look

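For 4 genes the direction for impurity F was opposite to that in every other table that listed them, in at least 3 tables. All were downregulated for impurity F and upregulated elsewhere, in 6 tables for *sox6*, a transcription factor, in 6 tables for *xrcc4*, a factor of DNA end joining, in 5 tables for *pigs*, a subunit of the transamidase that attaches GPI anchors, and in 4 tables for *gnb3b*, a G protein beta subunit of cone photoreceptors. *sox6* was upregulated for impurities I, L, J, Q, R and S, *xrcc4* for azithromycin and impurities I, J, Q, R and S, *pigs* for azithromycin and impurities I, J, Q and R, and *gnb3b* for impurities L, J, R and S. The difference was not tested, since each compound has 1 library. All comparisons share the DMSO library, so these genes lie lower in the impurity F library than in each of the others named for them. *gnb3b* carried 48 terms of the impurity F table.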

How the results depend on the processing

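The number of genes for impurity F was 408 over all databases. It was 299 with the KEGG rows alone, 393 with terms of 5 to 200 background genes and 401 with 1 entry per gene symbol, but 236 with the Reactome rows alone and 23 with the PANTHER rows alone. These last values follow from reading fewer terms. Members of the 21 gene lists numbered 66, and 34 with the Reactome rows alone. Leading terms numbered 389, and 228 with at least 20 background genes and 5 listed genes. The upregulated share stayed between 47.5% and 50.8% under the alternatives run. Of the single pathway and list counts, 25 stayed within 1.5 times with 1 entry per symbol. With the KEGG rows alone 3 of 15 list counts moved further (muscle markers from 8 to 4, hepatocyte markers from 3 to 1, neural and eye markers from 3 to 1), with the Reactome rows alone 9 of 15, and 11 of 20 pathway counts moved further when the 6 shared signaling genes were left out. Leaving out a replicate was not possible with 1 library per condition. Fold sizes, depth and the spread between larvae are unknown, and a deviation of the DMSO library would enter every direction given here and cannot be told apart from an effect of the compound.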
